A study of Mus musculus with 4 samples.

Results

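The 8 genes described here encode the enzymes, receptors and breakdown enzyme of the prostaglandin E2 and leukotriene pathways, and were taken by name (Ptgs1, Ptgs2, Ptges, Ptger2, Ptger4, Alox5, Alox5ap and Hpgd) from the 19059 genes of the probe set. They were measured in CD45+ cells sorted from subcutaneous tumors of MC38, a mouse colon carcinoma line, grown in B-hCTLA-4 mice, which carry human CTLA-4 on a C57BL/6 background. All 4 groups shared this genotype, a start of treatment at tumors of about 100 mm3, 3 intraperitoneal treatments and collection at day 8 from the first treatment. The control group received a human IgG1 isotype control at 10 mg/kg, and the combination group received ipilimumab, a human IgG1 against human CTLA-4, at 10 mg/kg together with AT130-2, an antibody on a mutated mouse IgG1 backbone against mouse FcgRII (the inhibitory Fc gamma receptor), at 20 mg/kg. The other two groups each received 1 of these antibodies, but their titles and treatment fields name opposite antibodies, so they are called single antibody A (title anti-human CTLA-4) and single antibody B (title anti-mouse FcgRII), and no direction is tied to either antibody. The labels give no age or sex. For its single-cell experiment the article gives smaller tumors at the start, lower antibody doses, an earlier harvest and fewer tumors a group than the labels do; the conditions and the number of pooled mice given here are those of the labels, and the difference could not be settled.

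Each group was 1 library made from the pooled tumors of 11 mice, so that no spread between animals could be measured, no p-value is given, and a difference between libraries cannot be told apart from a difference between the pools. Intervals in brackets are exact 95% intervals that cover counting error only. A level is the number of unique molecular identifiers (UMIs) of a gene per 1000000 UMIs of the cells summed, written CPM; a gene counted as higher or lower in a library where its ratio to isotype control was at least 2-fold and at least 30 UMIs of it were found over the 4 libraries. Probe assays differ in probe number between genes, so levels are compared within a gene only. Single-cell sums separate the level per cell class from the number of cells, but a CPM value is still a share of the RNA of the class.

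Prostaglandins are made from arachidonic acid by the cyclooxygenases, Ptgs1 (COX-1, present without stimulation in many cells) and Ptgs2 (COX-2, induced by inflammatory signals), and the microsomal synthase Ptges turns their product into prostaglandin E2. Prostaglandin E2 raises cyclic AMP in myeloid cells and lymphocytes through the receptors EP2 (Ptger2) and EP4 (Ptger4), is known for restraining T and NK cells in tumors, and is inactivated by the dehydrogenase Hpgd. Leukotrienes, which attract and activate leukocytes, are made by 5-lipoxygenase (Alox5) with its membrane partner FLAP (Alox5ap).

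The libraries held 8173, 6390, 6097 and 7630 cells (isotype control, single antibody A, single antibody B and combination, the order used for all lists of 4 values) and 129151823 to 196362818 UMIs, and 26782 cells in 27 clusters remained after filtering. Of these, 20 clusters with 23338 cells were neutrophil-like, macrophage-like, monocyte-like, T-like and NK-like by their markers and are written without "-like" below. The NK class was named from a list that holds markers of NK cells and of type 1 innate lymphoid cells (ILC1), which were not told apart. Macrophages were the largest class with 3628 to 4555 cells a library, against 417 to 1004 monocytes, 253 to 680 T cells, 243 to 441 NK cells and 111, 92, 48 and 462 neutrophils. Macrophage markers were not confined to macrophages: their 12 markers, none at 0, summed to 32040 to 40260 CPM in macrophages, 12410, 6901, 18380 and 12120 in T cells, 7066, 1561, 9779 and 5011 in NK cells and 6897 to 17300 in neutrophils. Values of T cells, NK cells and neutrophils are therefore also given for cells with under 1% of their UMIs on markers of other classes (343 of 442, 601 of 680, 182 of 253 and 351 of 479 T cells; 292 of 355, 403 of 422, 191 of 243 and 361 of 441 NK cells; 88 of 111, 82 of 92, 40 of 48 and 424 of 462 neutrophils), called clean cells below. The markers are a small part of the RNA of their own class, with 39320 to 56920 CPM for neutrophil markers in neutrophils. A clean cell can therefore still hold a sizeable part of RNA from another class. A cluster in which T cell and macrophage genes met, of 851, 261, 386 and 719 cells, was left out of the 5 classes. It was led by Foxp3, Tnfrsf4, Penk and Icos, so the T cell values leave out the Foxp3-bearing cells of this cluster. No cell barcode was shared between libraries.

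The genes lie on 7 chromosomes and all are protein coding (GRCm38, GENCODE vM21). Ptgs1 lies at chr2:36230426-36252272 (plus strand), Ptgs2 at chr1:150100031-150108227 (plus), Ptges at chr2:30889471-30929863 (minus) and Hpgd at chr8:56294585-56321043 (plus). The receptor genes lie at chr14:44988195-45003820 (Ptger2, plus) and chr15:5206661-5244187 (Ptger4, minus), Alox5 at chr6:116410077-116461178 (minus) and Alox5ap at chr5:149264767-149288153 (plus). RefSeq promoters (250 bases before to 50 after the start, GRCm38.p6) were found for 7 of the 8. The promoters of Ptgs2 (chr1:150099781-150100080, plus strand) and Ptges (chr2:30903248-30903547, minus strand, a start inside the span of the gene above) are shown because these genes were the ones higher in the combination library in both macrophages and monocytes. Capitals mark each match to TTNCNNAA, a C/EBP-type motif, read on both strands:
Ptgs2: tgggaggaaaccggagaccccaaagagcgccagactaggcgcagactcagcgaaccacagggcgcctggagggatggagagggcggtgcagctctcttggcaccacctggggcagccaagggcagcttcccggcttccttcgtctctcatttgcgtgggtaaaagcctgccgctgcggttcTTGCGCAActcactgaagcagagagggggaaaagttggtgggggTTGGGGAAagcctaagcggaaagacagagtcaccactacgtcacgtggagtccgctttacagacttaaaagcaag
Ptges: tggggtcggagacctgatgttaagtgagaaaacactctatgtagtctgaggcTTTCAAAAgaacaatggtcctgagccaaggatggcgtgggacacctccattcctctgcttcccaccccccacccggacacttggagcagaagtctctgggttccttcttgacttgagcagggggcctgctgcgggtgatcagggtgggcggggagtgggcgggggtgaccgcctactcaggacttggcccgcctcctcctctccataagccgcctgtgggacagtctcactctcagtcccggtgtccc

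In Ptgs2 the matches span positions -69 to -62 and -25 to -18 from the start, and in Ptges the match spans -198 to -191. The same motif was in 40.7% of 32544 promoters of this length, and also in those of Ptger2 (3 matches) and Hpgd (1 match), so it does not set the genes apart. No member promoter held the 10-base NF-kB motif (8.49% of promoters), the cyclic AMP response element TGACGTCA (1.8%), the AP-1 motif TGANTCA (7.79%) or the interferon-gamma activated sequence TTCNNNGAA (8.33%), which says only that these letters were not in these windows.

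The members differed in where they were found (plot of levels by cell class). Ptgs2 was highest in neutrophils in every library, Ptger2 also in neutrophils, Ptger4 in T cells and Hpgd in monocytes, and in each of these cases the range over the 4 libraries did not overlap that of the next class. In clean cells the Ptger2 ranges of neutrophils (93.7 to 202.2 CPM) and T cells (66.0 to 103.9) did overlap. For Ptgs1 the highest median over the libraries was in macrophages, for Alox5ap in monocytes, and for Ptges and Alox5 in neutrophils, and the ranges of these leading classes overlapped those of the next. Of the 8 members, 7 were among the 3000 genes used for clustering, so this order is a description. In a clustering without integration from which the pathway genes were left out, the class with the highest median was the same for all 8 genes. Ptgs2 then stood at 1390 to 1976 CPM in neutrophils against at most 273.5 elsewhere, and for Hpgd the ranges of monocytes (53.9 to 155.2) and neutrophils (0 to 93.6) overlapped.

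**Figure D1:**
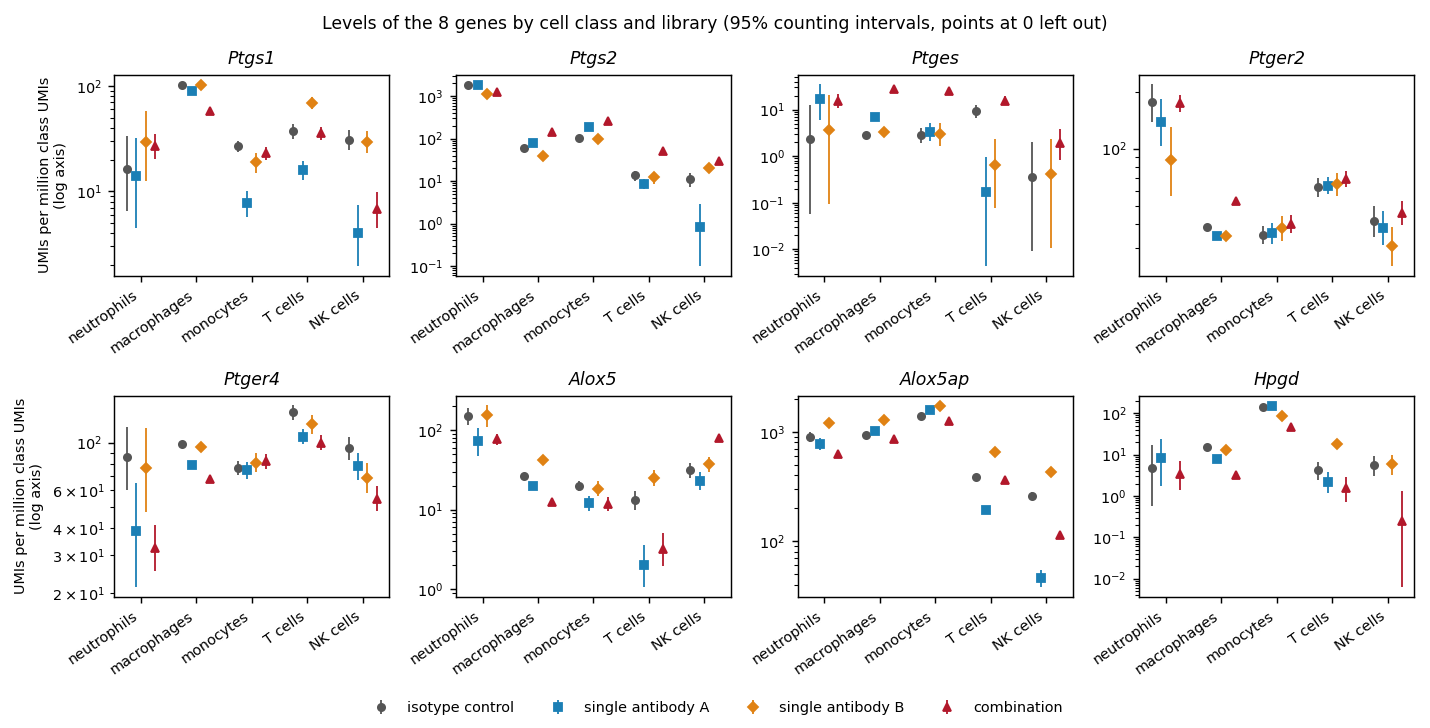
Level of each of the 8 genes (CPM of the class, log axis) in the 5 cell classes, 1 point per library with its 95% counting interval; a library with no UMI has no point. Ptgs2 lies at 1130 to 1846 in neutrophils and at most 263 in the other classes, and Hpgd at 47.1 to 151.2 in monocytes and at or below 18.4 in the others.

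In the combination library, macrophages held more Ptgs2 and Ptges and less Alox5 and Hpgd than in isotype control, monocytes more Ptgs2 and Ptges and less Hpgd, T cells more Ptgs2, and NK cells more Alox5 and, on counts that depended on the clustering, Ptgs2. Of all genes compared in macrophages, 3.43% were at least 2-fold higher and 4.31% at least 2-fold lower, against 2 of 8 members each way; in monocytes the shares were 3.99% and 1.58%, against 2 and 1 of 8. In neutrophils 6.66% of genes were higher and 6.66% lower, against 1 (Ptges) and 1 (Ptger4) of the 7 members compared. In T cells the shares were 2.08% and 2.59%, against 1 and 2 (Alox5 and Hpgd) of 8, and in NK cells 2.2% and 3.9%, against 2 and 3 (Ptgs1, Alox5ap and Hpgd) of 7. The median log2 ratio of the members was -0.33 in macrophages (all genes -0.12), -0.03 in monocytes (-0.07), -0.50 in neutrophils (-0.04), -0.08 in T cells (-0.05) and -0.78 in NK cells (-0.02). These medians are over 7 or 8 genes and all cells of a class. In clean NK cells the lower Ptgs1 and Alox5ap stood at 0.87 and 0.826. Cluster 23 fell from 30.6% to 7.36% of neutrophils, and within the neutrophil clusters Alox5ap stood at 1.035 and 1.043. Other members went both ways within the neutrophil clusters. Ptgs2 stood at 0.668 and 0.328, and Ptger4 at 0.317 in cluster 15. In that cluster Ptgs1 stood at 3.58 and Ptges at 4.68, on 2 and 1 UMIs of isotype control. Ptger2 and Alox5 went opposite ways in the 2 clusters. The NK cell and neutrophil medians therefore give no direction of the pathway within these cells, which was not tested.

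The single antibody libraries share their control with the combination, and their values stand beside it. In single antibody A, Ptges was higher in macrophages (1 of 8 members, against 1.21% of all genes, with 0 members and 3.72% of genes lower) and in neutrophils (4.67% of genes higher), where Ptger4 and Alox5 were lower (15.2% lower). In its clean neutrophils Ptges had 5 UMIs against 0 in isotype control, too few to measure the difference. Ptger4 stood there at 0.915 [0.307-2.67] and Alox5 at 0.493 [0.286-0.827]. Ptgs1 was lower in the monocytes of single antibody A (2.17%, with 0 members and 0.964% of genes higher). Ptgs1, Ptges, Alox5 and Alox5ap were lower in its T cells (4.66%, with 0 members and 1.66% of genes higher). Ptgs1, Ptgs2, Alox5ap and Hpgd were lower in its NK cells (8.2%, with 0 members and 1.59% of genes higher). In single antibody B, Ptger2 was lower in neutrophils (8.13%, with 0 members and 10.9% of genes higher), but at 1.58 [0.846-2.92] in clean neutrophils. In its T cells Hpgd was higher (1.35%) and Ptges lower (2.33%). No member passed 2-fold in its macrophages (0.955% of genes higher and 5.9% lower), monocytes (1.33% and 2.17%) or NK cells (1.47% and 1.68%). The T and NK cells of single antibody A held the smallest sums of macrophage markers and those of single antibody B the largest. In clean cells of isotype control, single antibody A and single antibody B, T cells held 2, 0 and 1 Ptges UMIs. They held 2, 2 and 1 each of Alox5 and Hpgd. Clean NK cells held 0, 2 and 4 Ptgs2 and 5, 0 and 1 Hpgd UMIs. These counts were too low to measure the differences above. Alox5ap stayed lower in clean cells of single antibody A (0.4475 in T and 0.4089 in NK cells). The Ptgs1 intervals there included 1 (0.2234-1.405 and 0.1703-2.131).

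**Figure D2:**
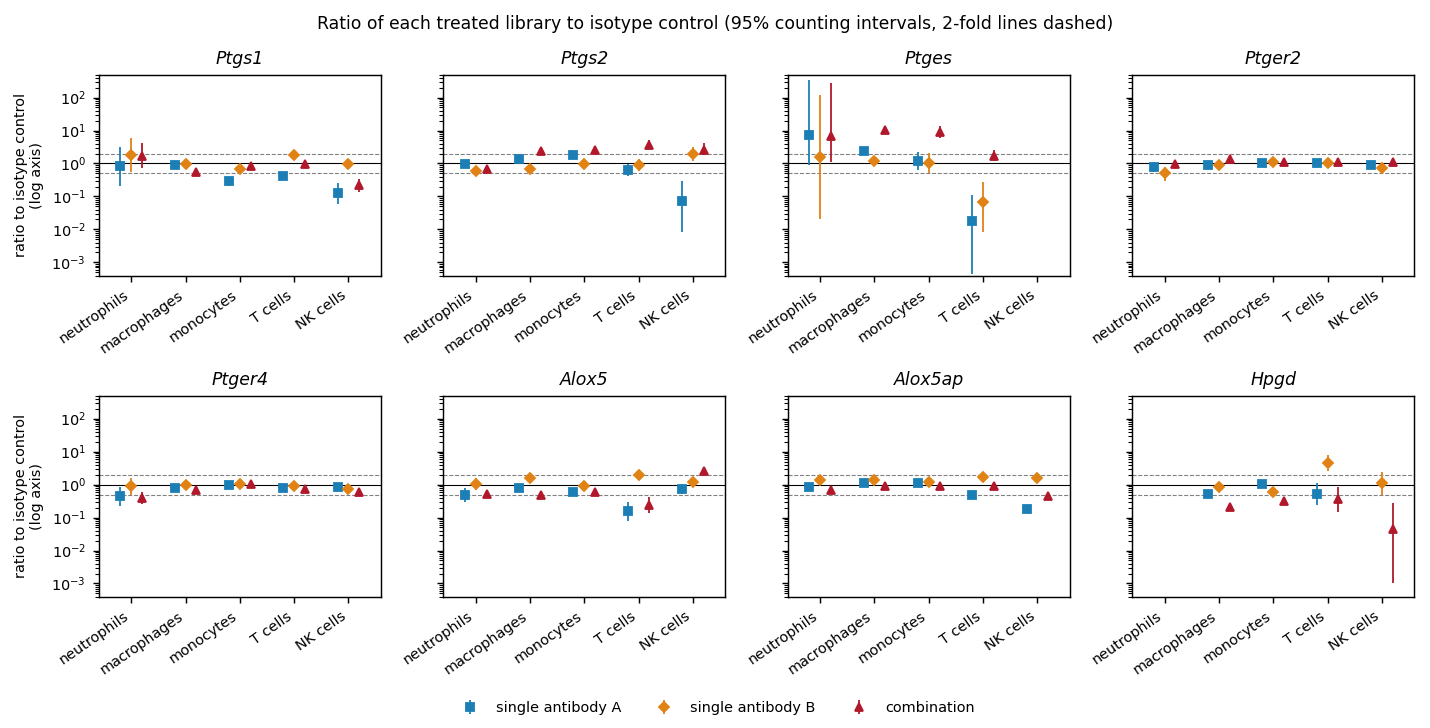
Ratio of each treated library to isotype control (log axis) for each gene and class, with exact 95% counting intervals; dashed lines mark 2-fold and a ratio with no UMI on either side is left out. In macrophages the combination stands at 10.1 for Ptges and 2.46 for Ptgs2, and at 0.21 for Hpgd and 0.471 for Alox5.

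Ptgs2 in macrophages stood at 59.6, 79.3, 39.2 and 147 CPM. The combination was the highest and single antibody B the lowest, and the intervals of the 4 libraries did not overlap. The ratio to isotype control was 2.46 [2.39-2.54] in the combination, 1.33 [1.28-1.38] in single antibody A and 0.659 [0.632-0.687] in single antibody B. The gene was detected in more cells as well as at a higher level: with every cell drawn down to 1864 UMIs, 7.26%, 9.64%, 5.29% and 15.2% of macrophages had a UMI (20.9%, 24.8%, 15.7% and 40.0% at full depth), against 0.665% to 4.08% of T cells. T cells were set beside macrophages as a class with a low share, with median depths of 4363 to 6202 UMIs against 16938 to 22138 in macrophages. They are not a background free of the gene, because T cell Ptgs2 was also higher in the combination (below).

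The difference ran through most macrophage clusters (plot of macrophage clusters). In 11 of 12 clusters the combination was the highest of the 4 libraries, and in 8 of 12 it was at least 2-fold above isotype control. With the cluster make-up held as in isotype control the ratio was 2.42. In cluster 1, led by Ctsk, heat shock genes, Adm and Gdf15, Ptgs2 stood at 245, 323, 182 and 461 CPM, the highest level of any macrophage cluster. In cluster 13, led by Clmp, Cxcl3, Mmp12 and Nos2, it stood at 158, 247, 79.3 and 377 CPM. The ratios were smaller in these Ptgs2-rich clusters (1.88 and 2.39) than in cluster 3, led by MHC class II genes and Cxcl9 (21.4 to 116, 5.42-fold), and the cycling cluster 8 (10.1 to 53.7, 5.32-fold). The exception was the small cluster 21, led by Retnla and Lyve1, with 36, 4, 1 and 7 UMIs.

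Ptgs2 was unevenly spread with Nos2, the inducible nitric oxide synthase of inflammatory macrophages. Macrophages with 3 or more Nos2 UMIs made up 12.9%, 20.5%, 9.71% and 52.9% of the class, with 72 to 221 cells a library at 2 or at 3 UMIs, next to this limit. Ptgs2 stood at 161, 227, 126 and 218 CPM in these Nos2-high cells and at 41.2, 39, 28.7 and 49.7 in the others, 3.91-, 5.83-, 4.40- and 4.39-fold apart. Within either kind of cell the combination stood nearer to isotype control than over the whole class, at 1.35 [1.30-1.41] in Nos2-high and 1.204 [1.14-1.27] in other macrophages. Nos2 itself differed between the libraries and was 2.80- to 6.26-fold richer in macrophages with a Ptgs2 UMI than in those without, so the ratios within either kind of cell are a description and do not give how much of the class difference goes with Nos2-high cells.

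Monocyte Ptgs2 stood at 102, 187, 96.7 and 263 CPM. Single antibody A and the combination were the high libraries, and isotype control and single antibody B overlapped. The combination was 2.58-fold [2.40-2.79] and single antibody A 1.83-fold [1.69-2.00] above isotype control. Both monocyte clusters differed by about as much: cluster 6, led by Plac8, Chil3 and Vcan, went from 175 in isotype control to 347 CPM in the combination (1.99-fold), and cluster 9, led by Ace and Adgre4 as in nonclassical monocytes, from 35.2 to 73.2 (2.08-fold). With the cluster make-up held as in isotype control the ratio was 2.00. Markers of neutrophils, the Ptgs2-rich class, also stood higher in the combination, at 846, 1016, 792 and 1845 CPM summed in monocytes and 478, 575, 515 and 1146 in macrophages, against 39320 to 56920 in neutrophils. In clean cells the ratios were 2.62 for monocytes and 2.45 for macrophages. Clean cells were 999 of 1004 monocytes and 4552 of 4555 macrophages in isotype control. In the combination they were 619 of 629 and 4204 of 4224. With so few cells left out, these ratios could hardly differ from those of the class. The part of neutrophil RNA in them was not tested.

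Ptgs2 in neutrophils stood at 1846, 1814, 1130 and 1290 CPM. Isotype control and single antibody A were high and overlapped, and single antibody B and the combination were lower, at 0.612 [0.535-0.698] and 0.699 [0.645-0.757]. This direction was opposite to that in macrophages and monocytes of the combination. Both neutrophil clusters of the combination were below isotype control, cluster 15 at 2017 and 1348 CPM (0.668) and cluster 23, led by Retnlg and Lcn2, at 1531 and 501.8 (0.328). The drawn-down share of neutrophils with a Ptgs2 UMI was 62.3%, 61.4%, 57.0% and 61.9%, with overlapping intervals. Clean neutrophils held 2040, 1985, 1728 and 1483 CPM, with the combination as the lowest library (0.727 [0.663-0.798]) and single antibody B nearer to isotype control (0.847 [0.726-0.986]) than in all neutrophils. Neutrophils held 8.44% of the Ptgs2 UMIs of the isotype control library and 10.0% in the combination, where macrophages held 62.1%.

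Ptges had the largest ratio of the 8 genes in macrophages. It stood at 2.80, 6.88, 3.24 and 28.3 CPM (267, 558, 303 and 3185 UMIs). The combination was 10.1-fold [8.93-11.5] and single antibody A 2.46-fold [2.12-2.86] above isotype control, and the interval of single antibody B, 1.16 [0.979-1.37], included 1. The combination was the highest library in all 10 macrophage clusters with enough UMIs, at least 2-fold above isotype control in 9 of them and 1.97-fold in the cycling cluster 12. Cluster 13 held the highest levels, at 13.9, 69.7, 25.7 and 137 CPM (9.86-fold), followed by cluster 1 at 4.59, 13.9, 6.16 and 83.9 (18.3-fold).

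Ptges also tracked the Nos2 split. Nos2-high macrophages held 7.19, 24.3, 9.23 and 45.4 CPM and the others 2.00, 2.14, 2.52 and 5.24. In the combination Ptges was 6.31-fold above isotype control among Nos2-high and 2.61-fold among other macrophages, larger ratios than those of Ptgs2 (1.35 and 1.204). Macrophages with a Ptgs2 UMI held more Ptges than those without in every library, by 1.54-, 3.33-, 1.95- and 2.13-fold, over all macrophage clusters together. Over the libraries both genes were highest in the macrophage clusters 1 (Ptgs2 302 and Ptges 27.3 CPM) and 13 (272.5 and 88.6). Whether the genes were found together within a cluster was not tested.

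**Figure D3:**
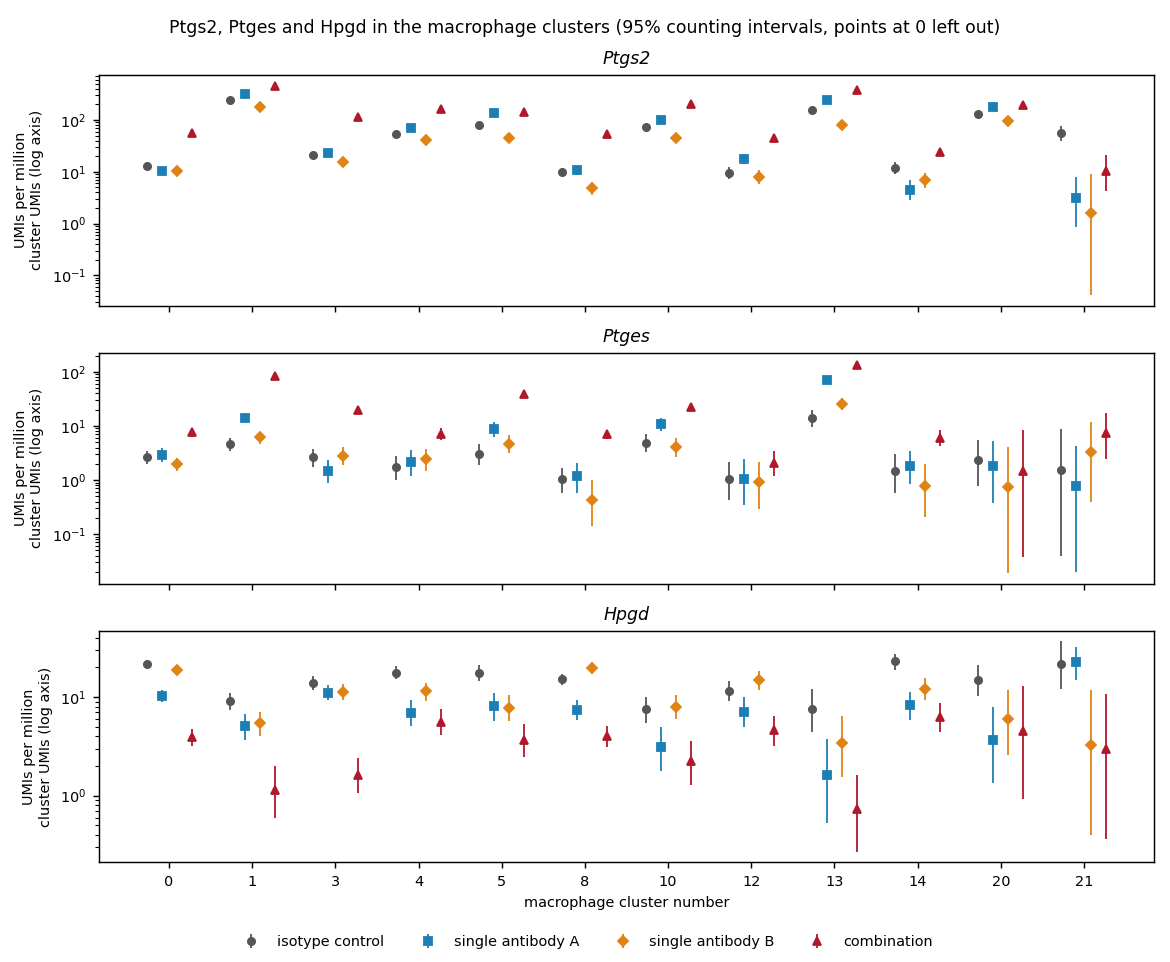
Level of Ptgs2, Ptges and Hpgd (CPM of the cluster, log axis) in each of the 12 macrophage clusters, 1 point per library with its 95% counting interval. The combination is the highest library for Ptgs2 in 11 of 12 clusters and the lowest for Hpgd in 11 of 12.

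Monocyte Ptges stood at 2.85, 3.40, 3.02 and 25.5 CPM (28, 22, 14 and 205 UMIs), with the combination apart from the other libraries (8.95-fold [6.01-13.8]). Few cells carried it: the top 1% of cells held 57.6% of the Ptges UMIs of the combination, and 1 cell held 50. In neutrophils the counts were 1, 6, 1 and 32 UMIs, a ratio of 6.71 in the combination with an interval of 1.12 to 273. Outside the 5 classes, the stromal and tumor cluster, led by collagen genes, held Ptges at 159, 199, 181 and 169 CPM, with the combination between the other libraries. This cluster of 74 to 98 cells held 61.4%, 71.1%, 81.2% and 21.6% of all Ptges UMIs, and macrophages 25.8%, 26.4%, 16.2% and 61.2%, so macrophages held more of the Ptges than this cluster did in the combination library and less in the other libraries. These shares depend on how many stromal and tumor cells passed the CD45+ sort, so they do not give the sources of Ptges in the tumor.

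Ptgs1, the constitutive cyclooxygenase, ran the other way. In macrophages it stood at 103, 90.3, 103 and 58.3 CPM. The combination was the lowest library, at 0.566 [0.548-0.584] of isotype control, short of 2-fold, while single antibody B was level with isotype control (0.996 [0.968-1.02]). The combination was the lowest of the 4 in 11 of 12 clusters. Macrophages with a Ptgs1 UMI held less Ptgs2 than those without, at ratios of 0.296, 0.282, 0.370 and 0.391. The cells with a Ptgs1 UMI were also the deeper ones, with medians of 21977 to 28356 UMIs against 12602.5 to 17836, and the part of depth in these ratios was not tested. The genes most like Ptgs1 over the 20 sums of class and library were the complement genes C1qc, C1qa and C1qb (Pearson r of log2 levels 0.965, 0.964 and 0.959), which mark macrophages; here as below, the 20 sums share libraries and class differences, and r is a description.

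In lymphocytes Ptgs1 was found mainly in cells with macrophage markers. Monocytes held 26.8, 7.72, 18.8 and 22.99 CPM, T cells 37.1, 16.01, 69.1 and 35.6, and NK cells 30.8, 4.06, 29.7 and 6.75. In clean cells T cells held 6.08, 3.35, 5.10 and 4.09 and NK cells 4.25, 2.61, 5.56 and 3.69 CPM, and the NK cell ratio of the combination moved from 0.22 to 0.87. The lower Ptgs1 of NK cells in the combination was thus not seen in clean cells.

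Ptger2, the EP2 receptor, was highest in neutrophils, at 176, 139, 87.5 and 173 CPM, with single antibody B at 0.497 [0.300-0.796] of isotype control on 24 and 76 UMIs. It stood in T cells at 62.4, 63.5, 64.6 and 69.5, and in NK cells at 41.4, 38.1, 30.5 and 45.8. T cells of all 4 libraries had overlapping intervals, and the combination stood against its control at 1.11 [0.952-1.30] in T cells, 1.11 [0.873-1.41] in NK cells and 1.14 [0.974-1.33] in monocytes. Macrophages held 38.4, 34.5, 34.5 and 53.1 CPM, 1.38-fold [1.33-1.44] higher in the combination, which was the highest library in 10 of 12 macrophage clusters, up to 2.18-fold in cluster 10, led by interferon-induced genes. In neutrophils the ratio was 0.985 [0.767-1.28] in all cells and 2.16 [1.45-3.36] in clean cells (93.7, 163, 148 and 202 CPM), so its direction there depended on which cells were summed.

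Ptger4, the EP4 receptor, was highest in T cells, at 138, 107, 122 and 99.9 CPM. Isotype control was the highest and the combination the lowest library, at 0.722 [0.643-0.810], and in clean T cells (170, 112, 122 and 103) at 0.603. By kind of T cell the ratios were nearer to 1, and each interval included 1. They were 0.841 [0.694-1.02] in CD8 T cells and 0.795 [0.509-1.19] in T cells with a Foxp3 UMI. Other CD4 T cells stood at 0.776 [0.595-1.01] and other T cells at 0.848 [0.631-1.15]. The part of the make-up by these kinds of cell in the class ratio was not tested. Macrophages held 98.2, 78.8, 95.2 and 67.6 CPM, and all 12 clusters of the combination were below isotype control, with a ratio of 0.688 [0.668-0.710] over the class. NK cells held 94.5, 77.9, 68.6 and 55.0 CPM (0.582 [0.485-0.698], and 0.667 in clean cells). Monocytes held 76.3, 74.5, 80.7 and 81.8 CPM, but their clusters went opposite ways in the combination, cluster 6 from 91.1 to 71.3 CPM (0.782 [0.680-0.898]) and cluster 9 from 62.7 to 105.7 (1.69 [1.43-1.99]). Summed over the class, EP4 was thus lower in the combination in T cells, NK cells and macrophages by less than 2-fold. In neutrophils it was 0.380 [0.251-0.584] on 37, 14, 21 and 67 UMIs, and 0.579 [0.267-1.39] in clean cells.

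Alox5, 5-lipoxygenase, had the most varied pattern. Macrophages held 26.1, 19.9, 41.4 and 12.3 CPM, and no intervals overlapped. Single antibody B was 1.59-fold [1.51-1.67] above isotype control and the combination at 0.471 [0.441-0.503]. In the combination all 12 macrophage clusters were below isotype control, 8 of them at least 2-fold, and scaling by the median of ratios gave 0.509, just short of 2-fold. The highest macrophage level was in cluster 21, led by Retnla, Lyve1 and Cd163, at 167, 211, 152 and 65.7 CPM.

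In NK cells the direction was the opposite. Alox5 stood at 31.5, 23.1, 37.3 and 80.3 CPM (86, 57, 88 and 333 UMIs), with the combination apart from the other libraries, 2.55-fold [2.01-3.27] above isotype control. Nearly all of it lay in cluster 17, led by Gzmg, Gzmd, Gzmc, Gzme and Gzmf, granzymes of activated cytotoxic cells, where it stood at 55.7, 44.2, 66.4 and 118 CPM (2.13-fold [1.65-2.76]), while cluster 11, led by Gzma and Klra8, held 9, 0, 11 and 4 UMIs. All 12 markers of the NK and ILC1 list were detected in both clusters. However, 0 of them were among the leading genes of cluster 17, against 6 in cluster 11, so cluster 17 may not be conventional NK cells. Cluster 17 also made up 101 of 355, 116 of 422, 85 of 243 and 195 of 441 NK cells, and with the make-up held as in isotype control the ratio was 1.95. Clean NK cells held 29.7, 23.9, 40.5 and 70.2 CPM (2.36-fold), while macrophage markers in NK cells were lower in the combination than in isotype control. The 6 markers of mast cells and basophils, whose clusters held the most Alox5 of all, summed to 6.59, 2.03, 4.66 and 6.99 CPM in NK cells. Ms4a2, Fcer1a and Gata2 were at 0 in the combination, so its sum, the highest of the 4, lay in the other markers of the list. The part of such cells in the Alox5 values of NK cells was not tested. T cells had 57, 12, 78 and 19 Alox5 UMIs, of which clean T cells held 2, 2, 1 and 1, so the lower value of the combination (0.248 [0.139-0.422]) was not measurable in clean T cells.

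Neutrophil Alox5 stood at 148, 72.1, 153 and 76.7 CPM, so that isotype control and single antibody B were high and the others low. The combination stood at 0.518 [0.385-0.704], and in clean neutrophils (173, 85.4, 239.8 and 88.1 CPM) at 0.509 [0.364-0.723]. Within clusters this difference was not seen (plot of clusters and class make-up): cluster 23 held 376, 163, 296 and 325 CPM, a ratio of 0.865 [0.573-1.30], and cluster 15 held 24.9, 53.5, 85.7 and 58.4, a ratio of 2.34 [1.10-5.96] on 7 and 112 UMIs. The Alox5-rich cluster 23, led by Retnlg and Lcn2, made up 30.6%, 18.5%, 33.3% and 7.36% of neutrophils, and with the make-up held as in isotype control the ratio was 1.03.

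**Figure D4:**
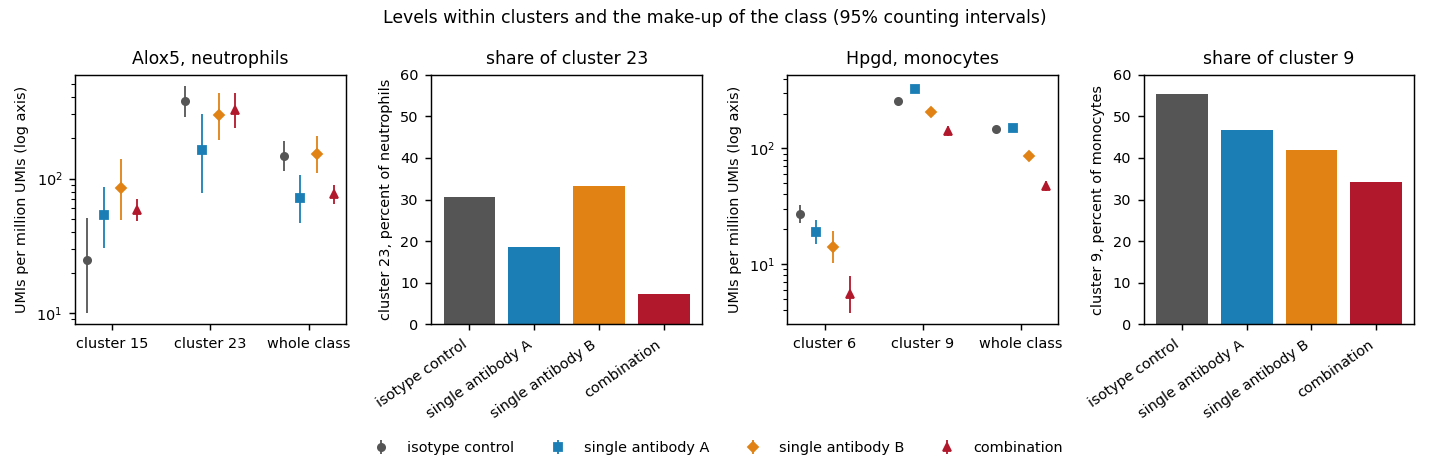
Left pair, Alox5 in the neutrophil clusters 15 and 23 and in all neutrophils (CPM, log axis, 95% counting intervals) beside the percent of neutrophils in cluster 23; right pair, Hpgd in the monocyte clusters 6 and 9 and in all monocytes beside the percent of monocytes in cluster 9. Cluster 23 stands at 7.36% of neutrophils and cluster 9 at 34.3% of monocytes in the combination, the lowest of the 4 libraries in both.

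Alox5ap, which presents arachidonic acid to 5-lipoxygenase, was abundant in all myeloid classes. Monocytes held 1396, 1584, 1732 and 1248 CPM, macrophages 938, 1019, 1289 and 859, and neutrophils 895, 774, 1213 and 633. Single antibody B was the highest library and the combination the lowest in all 3, and the ratios of the combination were 0.894 [0.871-0.917], 0.916 [0.907-0.924] and 0.707 [0.631-0.794], the last being 0.590 [0.513-0.680] in clean neutrophils (951, 783, 1136 and 561 CPM). Within the neutrophil clusters the ratios were 1.035 and 1.043. Neutrophils with an Alox5 UMI held 2.43-, 1.80-, 2.19- and 2.25-fold the Alox5ap of those without, over both clusters together. Over the libraries cluster 23 held more of both genes than cluster 15 (Alox5 314 against 56.2 CPM, Alox5ap 1796 against 562). Whether the partners of leukotriene synthesis were found together within a cluster was not tested.

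In lymphocytes Alox5ap followed the macrophage markers (plot of T and NK cells). T cells held 388, 194, 654 and 359 CPM and NK cells 260, 45.8, 426 and 114. The order of the libraries, single antibody B highest and single antibody A lowest, was that of the macrophage marker sums. Clean T cells held 66.3, 29.7, 64.2 and 57.6 and clean NK cells 34.0, 13.9, 45.3 and 28.1 CPM, and the NK cell ratio of the combination went from 0.438 [0.389-0.493] to 0.826. Among the genes most like Alox5ap over the 20 sums were Ifngr2 (r = 0.984) and Fgd4 (0.983).

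**Figure D5:**
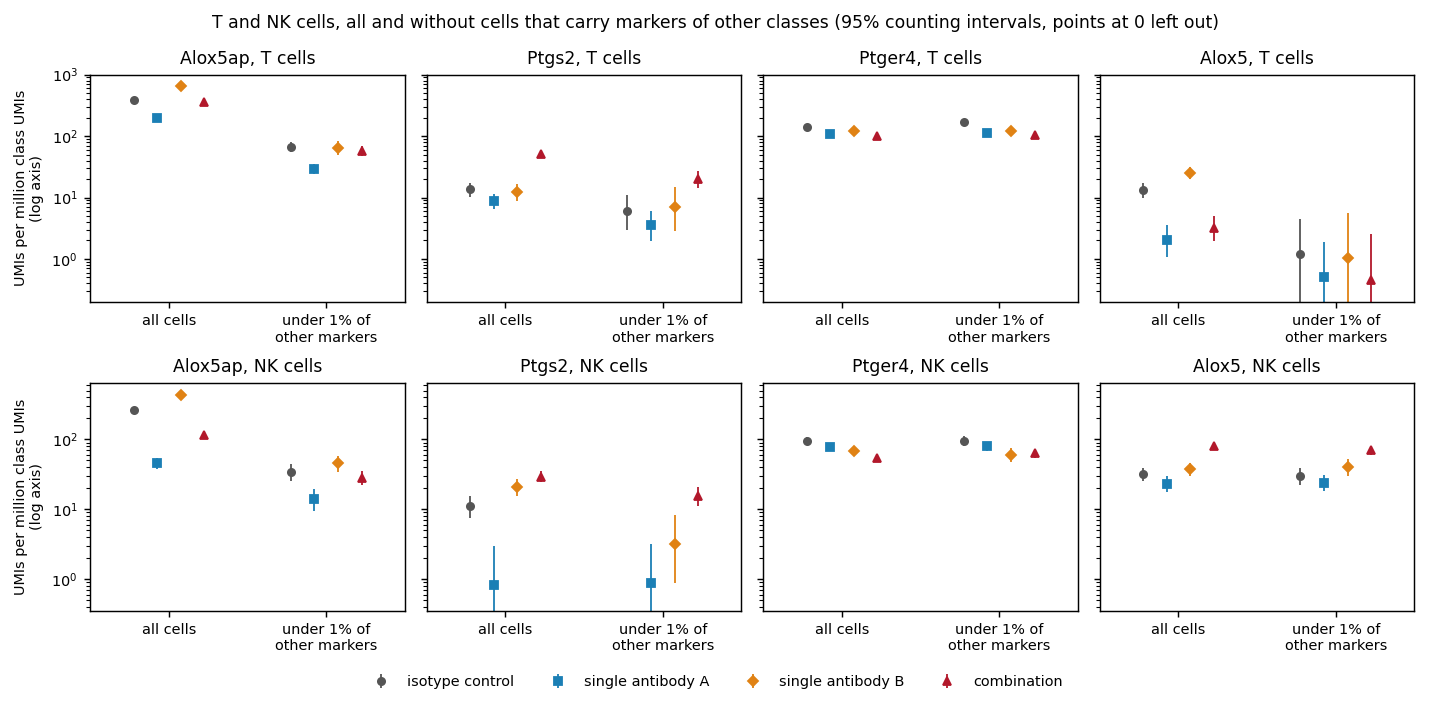
Alox5ap, Ptgs2, Ptger4 and Alox5 in T cells (top) and NK cells (bottom), in all cells and in those with under 1% of UMIs on markers of other classes (CPM, log axis, 95% counting intervals). Alox5ap drops in every library when the other cells are left out, to 29.7 to 66.3 in T cells, whereas Ptger4 stays near its level.

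Ptgs2 was also found in T and NK cells of the combination, and Ptges in its T cells. T cell Ptgs2 stood at 13.6, 8.69, 12.3 and 50.6 CPM, 3.73-fold [2.81-5.02] higher in the combination, where 57 of 479 cells had a UMI against 16 of 442. Clean T cells held 6.08, 3.61, 7.13 and 20.0 CPM (3.29-fold [1.63-7.32]), a level in the combination below that of macrophages in any library. Neutrophil markers in T cells moved the same way, at 436, 321, 284 and 825 CPM. NK cells held 30, 2, 49 and 121 Ptgs2 UMIs (2.66-fold [1.77-4.10] in the combination), but 75.2% of those of the combination lay in the top 1% of cells; clean NK cells held 0, 2, 4 and 42. These levels depended on which cells were clustered as lymphocytes: without integration and pathway genes, Ptgs2 stood at 1.47 to 19.4 CPM in T cells and 0.600 to 5.75 in NK cells, against 8.69 to 50.6 and 0.811 to 29.2 above, with ratios of 3.92 and 2.77 in the combination. NK cells held 1, 0, 1 and 8 Ptges UMIs, too few to compare. In T cells, 35 of the 40 Ptges UMIs of isotype control T cells lay in 1 cell, against 92 UMIs in the combination; clean T cells held 1.22, 0, 1.02 and 8.17 CPM.

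Hpgd, which inactivates prostaglandin E2, was lower in the combination in monocytes and macrophages, which had the highest medians of the 5 classes. Monocytes held 146, 151, 86.3 and 47.1 CPM. Isotype control and single antibody A were high and overlapped, single antibody B was at 0.592 [0.528-0.662] and the combination at 0.323 [0.287-0.362]. Hpgd lay mainly in cluster 9, led by Ace and Adgre4, at 255, 325, 207 and 141 CPM, with 27.2, 19.0, 14.2 and 5.55 in cluster 6. The combination was the lowest library in both clusters (0.556 and 0.204). Cluster 9 made up 55.4%, 46.6%, 42.0% and 34.3% of monocytes, and with the make-up held as in isotype control the ratio was 0.524, so part of the difference went with fewer cells of cluster 9 and the rest lay within clusters. Monocytes with an Hpgd UMI held less Ptgs2 than the others in every library, at ratios of 0.290, 0.341, 0.311 and 0.579, over both clusters together. The Hpgd-rich cluster 9 was also the poorer in Ptgs2, at 35.2 CPM in isotype control against 174.8 in cluster 6. Whether the genes lay apart within a cluster was not tested.

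Macrophage Hpgd stood at 15.6, 7.98, 13.2 and 3.28 CPM. The combination was the lowest library at 0.210 [0.187-0.236], and single antibody A stood at 0.511 [0.465-0.560]. In the combination all 12 clusters were at least 2-fold below isotype control, with ratios from 0.0972 to 0.399. Over the macrophage class Ptges was thus higher and the inactivating enzyme lower in the combination. Whether both held in the same cells was not tested. T cells had 18, 13, 57 and 9 and NK cells 15, 0, 14 and 1 Hpgd UMIs, and clean cells of either class at most 5 a library. The genes most like Hpgd were Ldlrad3, Csgalnact2 and Zfyve9 (r = 0.94, 0.922 and 0.92), those most like Ptgs2 were Slfn4, Rhov and Cd300lf (0.989, 0.986 and 0.979), those most like Ptges Glrx, Acsl1 and Il18bp (0.861, 0.861 and 0.834), and those most like Ptger2 Ltf, Rilpl2 and Ccl3 (0.948, 0.94 and 0.939). Likeness was weaker for Ptges, and also for Ptger4 (Tlk1, Fbxo33 and Gtf2h2, 0.849, 0.834 and 0.829) and Alox5 (Selenon, Arap3 and Gcnt1, 0.842, 0.822 and 0.816).

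The wider eicosanoid list held 41 further genes, all in the probe set. In macrophages 35 had enough UMIs, of which 5 were at least 2-fold above (3.43% of all genes) and 3 at least 2-fold below isotype control (4.31%) in the combination, with a median log2 ratio of -0.03 (all genes -0.12). Fpr2, a receptor for lipoxin and formyl peptides, stood at 78.0 and 303 CPM (3.88-fold) and Pla2g7, which hydrolyses platelet-activating factor, at 659 and 1500 (2.28-fold). The other higher genes were rare: Mgll, which releases arachidonic acid from monoacylglycerols, had 7 and 32 UMIs, Pla2g5 had 6 and 17 with an interval of the ratio that included 1, and Pla2g2d had 0 and 3. Lower were the leukotriene C4 synthase Ltc4s, at 12.8 and 3.86 CPM (0.303), the cysteinyl leukotriene receptor Cysltr1, at 95.2 and 46.7 (0.490), and the prostacyclin synthase Ptgis, at 12 and 6 UMIs. Of the genes of leukotriene synthesis, Alox5 and Ltc4s were thus lower in macrophages, while Alox5ap, Lta4h and Dpep2 did not pass 2-fold. The leukotriene pathway as a whole was not tested.

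In the other classes few genes of the list passed 2-fold, and each count is given with the share of all genes. The counts of higher and lower genes were 1 and 1 of 25 in monocytes (3.99% and 1.58%), 2 and 3 of 20 in neutrophils (6.66% and 6.66%), 2 and 2 of 26 in T cells (2.08% and 2.59%) and 1 and 3 of 23 in NK cells (2.2% and 3.9%). With counts this small nothing is read from them about the list, and the genes are given by their values. Monocytes had more Fpr2 (147 and 434 CPM, 2.96-fold) and less Ltc4s (34 and 11 UMIs). Neutrophils had more Abcc1, an exporter of leukotriene C4, at 41.7 and 177 CPM (4.25-fold [2.65-7.26]), more Ptgr1, which reduces prostaglandins and leukotriene B4, and less Ptges2 (0.378), Hpgds (0.391) and Cysltr1 (0.476). T cells had more Fpr2 (2.86-fold) and Pla2g7 (2.44-fold) and less Ltc4s and Ggt5, each of which was highest in a myeloid class. NK cells had more of the leukotriene B4 receptor Ltb4r1, at 17.2 and 42.7 CPM (2.48-fold [1.79-3.50]), and less Hpgds (0.240), Dpep2 (0.298) and Cyp4f18 (0.302). Hpgds, Dpep2 and Cysltr1 were highest in macrophages, and Ltb4r1 and Cyp4f18 in neutrophils. Macrophage markers in NK cells were lower in the combination than in isotype control. Values of clean cells are not given for these genes, and the part of RNA from other classes was not tested.

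The genes of the list were led by different classes. Macrophages by median over the libraries held the most Pla2g4a, the cytosolic phospholipase that frees arachidonic acid, Pla2g2d, Pla2g5, Pla2g15, Ptges3, Hpgds, the thromboxane synthase Tbxas1, Ltc4s, Dpep2, Abcc1, Ptgr1, Cysltr1, Alox15, Cmklr1 and Ptgfr. Neutrophils led for Pla2g7, Mgll, Ggt5, the leukotriene B4 oxidase Cyp4f18, Ltb4r1, Fpr2 and Ptgdr, and monocytes for Ptgir, Abcc4, Alox12 and Ptgds. T cells led for Faah, Cbr1, Akr1b3, Ptgdr2, Tbxa2r and Ltb4r2, and NK cells for Lta4h, which makes leukotriene B4, Ptges2, Ptgis, Ptger1, Ptger3, Slco2a1, Ptgr2, Cysltr2 and Ephx2. Ptgdr, Ptgfr and Ptgds were led on 3 to 5 UMIs in all, which gives no order. Alox12, Slco2a1, Pla2g2d, Pla2g5, Ptger3, Ptgdr2 and Ephx2 had 36 to 70 UMIs over the 5 classes, so their leading class is uncertain. Whether the ranges of the classes overlapped is not given for this list, and its order is a description.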

How the data were processed

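Droplet-based probe libraries (10x Flex) of CD45+ tumor cells, enriched on a Lympholyte-M gradient, sorted and fixed, were analysed from the deposited UMI counts per gene and cell, which the authors made with Cell Ranger (7.0.0 in the submitters' processing notes, 7.2.0 in the file headers) on mm10; the methods state default settings. The counts were not normalized. All 4 libraries carry the same batch label, and each is 1 library per group, so no test was made.

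The clustering took its normalization and integration steps from the study's methods, in a later Seurat and with limits on cells set here; unlike in the methods, cell cycle was not controlled for and house-keeping genes were not used as a filter. Cells with at least 500 genes and at most 10% mitochondrial UMIs were kept. The methods name DoubletFinder for doublets; here Scrublet (scanpy 1.11.5) was used, whose automatic limit called 0, 0, 1 and 0 cells and so did not work; instead, from each library the top 5% of cells by score were dropped. Counts were normalized by SCTransform (sctransform 0.4.2) and integrated in Seurat 5.3.0 (R 4.3.3) over 3000 features, 30 principal components and resolution 0.8. Clusters were named from 12 marker lists, and how clusters with markers of 2 classes were treated was decided after the clusters were seen. Counts were summed by class and library (Python 3.11.15, numpy 2.4.6, pandas 2.3.3) with exact Poisson intervals for levels, conditional binomial intervals for ratios and binomial intervals for shares (scipy 1.17.1), all at 95% and for counting error only. PCR duplicates were collapsed by the UMIs in the deposited counts. Library totals were 129151823 to 196362818 UMIs.

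The members and gene lists were chosen with earlier results of these data known. Named genes were the 8 members, those of the wider list at least 2-fold higher or lower in the combination with 30 UMIs over the libraries (at most 5 each way and class), each gene's leading class, and for each member the 3 most alike genes among 6765 with 50 UMIs per 1000000 in any of 20 sums, of which 1 gene is not reported here. A planned permutation test between classes over the 4 libraries is not given, because the classes were clustered on genes that include the members and the test could not have passed the threshold. Promoters came from RefSeq and gene positions from GENCODE vM21.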

Additional observations from a re-analysis of the deposited data

Results flagged for a closer look

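Outside the 5 classes, Ptgs2 in dendritic cells of isotype control and of the combination stood at 26.0 and 71.5 CPM (68 and 130 UMIs, a ratio of 2.746), and Ptgs2 in the cluster in which T cell and macrophage genes met stood at 35.6 and 98.7 CPM (2.774). Ptges in the same mixed cluster stood at 1.68 and 16.99 CPM (10.11). These values lie in cells that the comparisons above did not use and passed 2-fold over isotype control.

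Alox5 stood on opposite sides of isotype control in different classes of the combination, at 2.549 times the control in NK cells, 0.471 in macrophages and 0.2476 in T cells, of which clean cells held 2, 2, 1 and 1 Alox5 UMIs, too few to measure it. With 1 library a group, the difference between the classes was not tested. Groups of 1 library leave no sample to be set apart from its replicates.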

How the results depend on the processing

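Counts of members at least 2-fold apart between the combination and isotype control were computed under 13 alternatives in 5 classes, and 107 of these counts were within 1.5 times the first value and 23 were not. In neutrophils the count of higher members (1) was 0 at a minimum of 100 UMIs, and the count of lower members (1) was 2 at resolution 0.4, at resolution 1.2, with 20 principal components and with at least 1000 genes and at most 5% mitochondrial UMIs, and 0 with cells of 1% or more UMIs on other markers left out. In macrophages the count of lower members (2) was 1 under median-of-ratios size factors, where Alox5 stood at 0.509; this scaling moved the median log2 ratio of all macrophage genes by 0.11. In monocytes the count of lower members (1) was 2 without integration and 0 with the cluster make-up held as in isotype control. In T cells the count of higher members (1) was 2 without integration, at resolution 1.2, by the mean over cells and without integration and pathway genes, and the count of lower members (2) was 0 without integration, 0 in clean cells, 1 at a minimum of 100 UMIs and 0 without integration and pathway genes. In NK cells the count of higher members (2) was 1 without integration, with 20 principal components and with the make-up held, and the count of lower members (3) was 0 without integration, 0 in clean cells and 1 without integration and pathway genes. Beyond fewer genes at a higher minimum or fewer cells, the causes were not tested.

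Of the single ratios, 328 moved by less than their counting interval, 80 by more, and 0 changed sides of 1 where called. Ratios not called at first could change sides. Ptger2 stood below 1 in all neutrophils of the combination and at 2.16 in clean ones. In clean neutrophils Ptger2 was the higher member in place of Ptges, which had too few UMIs there to be compared. In macrophages Ptges ranged from 8.368 to 10.94, Ptgs2 from 2.229 to 2.659 and Hpgd from 0.1745 to 0.227. Alox5 in NK cells ranged from 1.949 to 3.068, Hpgd in monocytes from 0.2752 to 0.5243 and Ptges in T cells from 1.139 to 25.87. The clustering without integration and pathway genes and the held make-up were chosen after seeing the data. Shares of cells with a UMI moved with depth in 125 of 160 cases. No paired analysis was possible because each group is 1 library. Counts were low in neutrophils and for Ptges and Hpgd in lymphocytes, which widens their intervals, and no error between animals could be measured. Leaving out a replicate was not possible for the same reason.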

Other observations

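Cells outside the 5 classes held several of the genes at high levels. Alox5 stood at 1163, 1537, 1355 and 1491 CPM in mast cells and basophils, which make leukotrienes on activation, and cells of this kind, 0.693% to 1.09% of the isotype control and combination libraries, held 15.9% and 20.4% of their Alox5 UMIs. By cluster it was 1528 over the libraries in cluster 25, led by the mast cell proteases Mcpt2, Mcpt4 and Cma1, and 684 in the basophil cluster 22, led by Mcpt8 and Prss34. Alox5ap stood at 2221, 2579, 2850 and 2228 CPM in the same cells.

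Ptger4 was highest of all clusters in cluster 24, led by Ccl22, Ccr7 and Fscn1 as in migratory dendritic cells, at 635.5, 733.6, 398.9 and 552.6 CPM, against 145.6, 133.5, 147.7 and 106.2 in the other dendritic cell cluster. Hpgd in dendritic cells stood at 55.5, 43.2, 29.4 and 12.7 CPM (145, 81, 40 and 23 UMIs), the combination again being the lowest library. Ptgs2 in the stromal and tumor cluster stood at 146.7, 160.3, 71.7 and 223.5 CPM, and this cluster shows that the CD45+ gate passed some cells with collagen genes.

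Among T cells with a Foxp3 UMI (115, 60, 56 and 14 cells) there were 16, 11, 0 and 35 Ptgs2 UMIs. These are cells of the T class only, without the Foxp3-led mixed cluster. In CD8 T cells Ptgs2 stood at 4.66, 8.2, 18.4 and 44.3 CPM, with the combination highest. Alox5ap, which in T cells followed the macrophage markers, stood at 415, 217, 652 and 337 CPM in the same cells, and neutrophil markers in all T cells summed to 436, 321, 284 and 825 CPM; their part in the Ptgs2 values was not tested. The few Foxp3 cells of the combination leave that value on 14 cells.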
